A study of Mus musculus with 12 samples.

Results

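The 10 genes described here act in oxygen sensing and in the uptake and release of glucose and lactate, and they were taken by symbol from the 23420 genes of the deposited count table: Hif1a, Egln1, Egln2, Egln3, Vegfa, Slc2a1, Slc2a3, Slc16a3, Pdk1 and Bnip3. All 10 had enough counts to be tested, among 9742 genes tested in all. They were measured by RNA sequencing of cells that the study sorted as CD11b+Ly6G-Ly6Chi and calls M-MDSCs (monocytic myeloid-derived suppressor cells), from the tibia bone marrow of male C57BL/6JNIA mice. The 6 aged mice were 24 months old and the 6 young mice 6 months old, each mouse gave 1 library, and the labels name no treatment, transgene or deletion for either group. Libraries are named by age and the mouse number of the labels (aged 1, 2, 4, 5, 6 and 7, and young 1, 2, 5, 6, 9 and 10). The comparison asks whether transcripts for hypoxia sensing and for glucose and lactate transport differed with age in these cells.

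Hypoxia-inducible factor (HIF) is a transcription factor whose alpha subunit is made continuously and destroyed when oxygen is present. The prolyl hydroxylases of the Egln family use oxygen to mark the alpha subunit for capture by the von Hippel-Lindau protein and for degradation, and in low oxygen the subunit is spared, pairs with ARNT and switches on genes of glucose uptake, glycolysis, lactate export, vessel growth and mitophagy. Bone marrow is a tissue of low oxygen, and myeloid cells rely strongly on glycolysis. Because the alpha subunit is controlled mainly at the level of the protein, its mRNA is not a measure of HIF activity.

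Between 8737941 and 16300374 fragments were counted per aged library and between 4613239 and 9079237 per young library, and expression is reported in CPM, that is, counts scaled to the TMM-normalized total of each library. A total of 3 counts stood for at most 0.35 CPM in aged and 0.643 CPM in young libraries. The markers of the sort were present, with Itgam (CD11b) at a mean of 3376 CPM in young and 2895 CPM in aged mice and Ly6c2 at 500 and 727 CPM. Those genes made up most of the sum of the 6 classical monocyte markers (3992 to 4176 CPM in young and 3414 to 4447 CPM in aged libraries), and Itgam is also expressed by neutrophils. The other 4 monocyte markers were low, with means of 134 and 141 CPM for Csf1r in young and aged mice, 37.1 and 31.3 CPM for Ccr2, 26.9 and 21.0 CPM for F13a1 and 2.90 and 4.19 CPM for Fcgr1. The 7 neutrophil markers summed to 60435 to 83028 CPM in young and 77509 to 92643 CPM in aged libraries, although the sort was made on cells without Ly6G, and were led by the granule genes Ngp (means of 30944 CPM in young and 39630 CPM in aged mice) and Ltf (21723 and 20903 CPM), with 3 of the 7 (Camp, Ngp and Retnlg) called higher in aged mice, 0 lower with edgeR and a median log2 fold change of 0.25. By these lists the libraries held far more RNA of neutrophil genes than of monocyte genes, and the name M-MDSC is used here only as that of the sort. The 9 resident macrophage markers summed to 46.3 to 65.8 CPM in young libraries and 57.1 to 1050 CPM in aged libraries, with aged 1 the highest and aged 2 at 322 CPM, and 8 of the 8 tested were called higher in aged mice. The 6 proliferation markers summed to 589 to 744 CPM in young 1, 2, 9 and 10, to 1201 CPM in young 5 and 1160 CPM in young 6, and to 301 to 710 CPM in aged libraries. This sum was carried by Mki67 (means of 399 CPM in young and 99.0 CPM in aged mice) and Top2a (319 and 208 CPM), which were the 2 called lower in aged mice, and the other 4 (Ccnb1, Cdk1, Aurkb and Birc5) were not called, with Ccnb1 at a log2 fold change of 0.17. B and plasma cell, T and NK cell and erythroid markers summed to at most 82.2, 12.4 and 5.24 CPM, and Hba-a1 was at 0 in all 12 libraries. The part of these cell types in the results was not tested, and in bulk RNA fewer cells of a type and less RNA per cell cannot be told apart. The alignment files of all young mice carry lower numbers than those of all aged mice, so a batch that followed these numbers and age cannot be told apart, and within the aged mice the numbers have a gap after the first 3 (aged 1, 2 and 4).

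Of the 10 genes, 4 were higher in aged M-MDSCs (Pdk1, Bnip3, Egln3 and Slc2a1), 1 was lower (Vegfa) and 5 did not pass the test (Hif1a, Egln1, Egln2, Slc2a3 and Slc16a3), with edgeR's quasi-likelihood test and an adjusted p under 0.05 over all genes tested. Over all genes tested, 45.4% were called, 22.4% higher and 23.0% lower, so the number of calls among the 10 genes is near the background. The rises lay between a log2 fold change of 0.52 for Slc2a1 and 0.93 for Pdk1, and Vegfa fell by 0.30 on the log2 scale. The median log2 fold change of the 10 genes was 0.18, against 0.01 over all genes tested. None of the 10 genes had values without overlap between the ages, whereas 21.8% of all genes tested did, 9.68% with the aged and 12.1% with the young libraries above. The median length over exons was 3100 bases for the 10 genes and 2890 bases for all genes tested. Across all genes tested, longer genes had lower fold changes (Spearman's rho of -0.48, over genes that are not independent replicates).

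**Figure D1:**
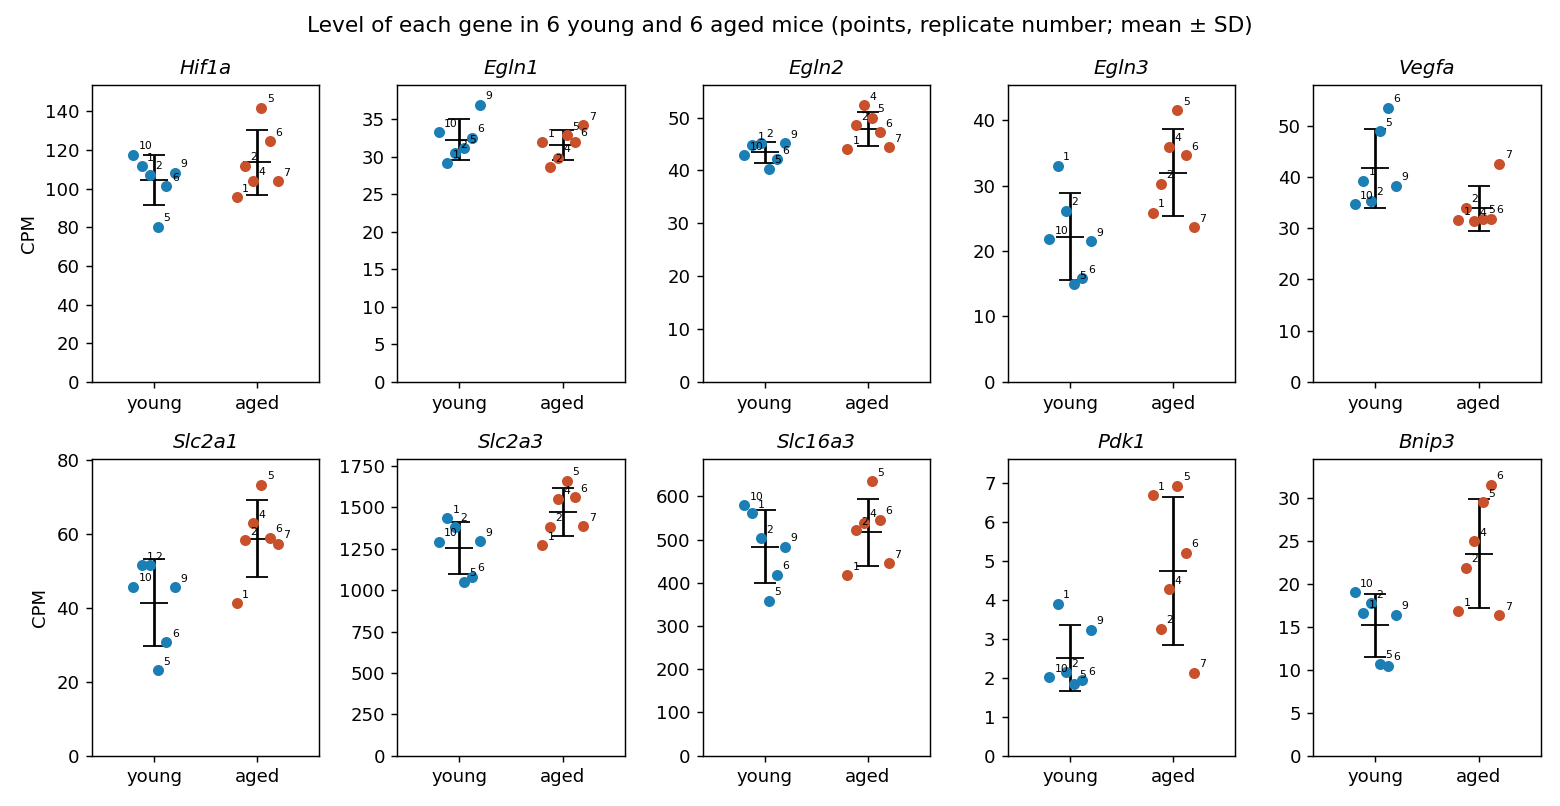
Level of each of the 10 genes in CPM (vertical axis, from 0) in the 6 young and 6 aged libraries, with each point 1 mouse labelled by its number and the bars the mean ± SD. The young and aged points overlap in every panel, young 5 and 6 lie lowest for Egln3, Slc2a1, Slc2a3, Pdk1 and Bnip3, and they lie highest for Vegfa.

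HIF binds DNA at a short core, ACGTG or GCGTG. The 250 bases before the transcription start were searched for these letters on both strands, with overlapping matches counted, in the promoter sequences of RefSeq (GRCm38.p6, the same build as mm10), in which 9 of the 10 genes were found by symbol, all except Slc2a3. The 5 genes called between the ages are printed 5′ to 3′ on the strand of the gene and end at the base before the start, with the matches in capitals (a match on the other strand reads CACGT or CACGC here).
Egln3: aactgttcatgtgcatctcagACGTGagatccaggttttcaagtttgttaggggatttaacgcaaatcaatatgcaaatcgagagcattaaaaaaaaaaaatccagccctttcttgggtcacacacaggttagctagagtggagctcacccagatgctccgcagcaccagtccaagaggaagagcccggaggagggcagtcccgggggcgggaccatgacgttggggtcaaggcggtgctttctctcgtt
Slc2a1: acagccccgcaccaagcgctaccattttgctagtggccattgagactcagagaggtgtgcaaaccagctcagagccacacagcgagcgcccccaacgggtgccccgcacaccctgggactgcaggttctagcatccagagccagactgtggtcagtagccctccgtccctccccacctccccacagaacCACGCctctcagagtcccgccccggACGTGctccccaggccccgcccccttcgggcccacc
Pdk1: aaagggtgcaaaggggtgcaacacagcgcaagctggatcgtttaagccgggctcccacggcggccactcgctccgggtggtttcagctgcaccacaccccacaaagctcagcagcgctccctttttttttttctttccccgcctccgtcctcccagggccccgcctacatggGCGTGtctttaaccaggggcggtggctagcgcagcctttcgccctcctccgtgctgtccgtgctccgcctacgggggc
Bnip3: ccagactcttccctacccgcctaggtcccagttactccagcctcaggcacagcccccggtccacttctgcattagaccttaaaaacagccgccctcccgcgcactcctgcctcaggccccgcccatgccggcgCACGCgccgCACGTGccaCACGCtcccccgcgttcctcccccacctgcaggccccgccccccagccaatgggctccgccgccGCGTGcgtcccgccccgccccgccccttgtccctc
Vegfa: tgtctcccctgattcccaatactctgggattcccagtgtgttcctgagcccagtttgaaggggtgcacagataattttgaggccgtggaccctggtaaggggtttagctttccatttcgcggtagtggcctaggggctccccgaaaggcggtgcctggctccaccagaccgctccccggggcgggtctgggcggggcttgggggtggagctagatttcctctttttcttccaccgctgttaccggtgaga
These windows are chr12:54203875-54204124 on the minus strand (Egln3), chr4:119108495-119108744 on the plus strand (Slc2a1), chr2:71872974-71873223 on the plus strand (Pdk1), chr7:138909507-138909756 on the minus strand (Bnip3) and chr17:46032378-46032627 on the minus strand (Vegfa). The RefSeq start of Pdk1 lies 48 bases from the start in the deposited table, and the other 4 starts are the same in both.
Bnip3 held 5 matches, at 117, 108, 107, 99 and 35 bases before the start, and those at 108 and 107 are the same 6 bases, CACGTG, read on either strand. Slc2a1 held 2 matches, at 61 and 36 bases, Egln3 held 1, at 229 bases, and Pdk1 held 1 GCGTG, at 78 bases. The window of Vegfa, the gene that was lower in aged mice, held 0. In all, 8 of the 9 genes matched had either core and 7 had ACGTG. For these genes the RefSeq promoter nearest the deposited start was taken, which for Slc16a3 lies 583 bases from it. The background instead takes the first promoter of each gene. Of the first promoter of all 27025 genes in that collection, 38.6% had either core and 16.6% had ACGTG, and of the 7380 with a tested gene 58.1% and 23.1%. A match is a description of the letters and not of binding, and no match says only that these letters are absent from the window.

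Hif1a, the oxygen-regulated alpha subunit, lies at chr12:73907867-73947530 of mm10 on the plus strand with 15 exons. It ranged from 80.3 to 118 CPM in young libraries (median 108) and from 95.6 to 142 CPM in aged libraries (median 108). The highest value was that of aged 5 and the lowest that of young 5, the medians were equal to 3 digits, and 4 of the 6 aged libraries lay below the highest young library. The log2 fold change was 0.12 (standard error, SE, 0.105, edgeR adjusted p = 0.351), so no age difference was detected beyond the spread between mice. With only the 3 aged libraries numbered before the gap in the file numbers it was -0.0075, and after a correction for gene length it was 0.30 without passing the threshold.

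The 3 prolyl hydroxylases differed from each other. Egln1 encodes PHD2, the hydroxylase that acts most on HIF1A in cells with normal oxygen, and lies at chr8:124908587-124949254 with 5 exons. It was the steadiest of the 10 genes together with Egln2, at 29.1 to 36.9 CPM in young libraries (median 31.8) and 28.6 to 34.1 CPM in aged libraries (median 31.9). The ranges lay almost on top of each other, and the log2 fold change was -0.03 (SE 0.0766, edgeR adjusted p = 0.75). Egln2 encodes PHD1, which is found mainly in the nucleus, and lies at chr7:27158658-27166802 with 6 exons. It ranged from 40.4 to 45.2 CPM in young (median 43.8) and from 44.0 to 52.4 CPM in aged libraries (median 47.9). The coefficient of variation between mice was 4.54% in young and 6.78% in aged mice, 2 aged libraries lay below the highest young one, and the 10.1% higher fitted level did not pass the test (log2 fold change 0.14, SE 0.0664, edgeR adjusted p = 0.0994). With upper quartile factors it did (0.17, adjusted p = 0.0354).

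Egln3 encodes PHD3, the member of the family whose gene is itself strongly induced by HIF, and lies at chr12:54178981-54203874 with 5 exons. It ranged from 14.97 to 33.0 CPM in young libraries (median 21.6) and from 23.7 to 41.5 CPM in aged libraries (median 32.5). Young 5 and young 6 were lowest, at 14.97 and 15.9 CPM, young 1 at 33.0 CPM lay above 3 of the 6 aged libraries, and aged 5 was highest. Egln3 rose by 46.0% with a log2 fold change of 0.55 (SE 0.184, edgeR adjusted p = 0.0247). The call was lost without aged 5 (0.46, adjusted p = 0.0587), without young 5 (0.45, adjusted p = 0.0574) and without young 6 (0.46, adjusted p = 0.0578). It was also lost with only the aged libraries before the file number gap (0.49, edgeR adjusted p = 0.0948) or after it (0.61, edgeR adjusted p = 0.0666). In the 8 libraries whose replicate numbers both ages share, it was lost with the number as a block (edgeR adjusted p = 0.1325) and without (edgeR adjusted p = 0.0732). On the scale of CPM per kilobase of exon, the ratio of Egln3 to Egln1 was 0.922 ± 0.334 (SD, n = 6) in young and 1.34 ± 0.294 (SD, n = 6) in aged mice, and the ratio of Egln2 to Egln1 was 2.27 ± 0.209 and 2.55 ± 0.297. These ratios overlapped between the ages and were not tested.

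Vegfa, the vascular endothelial growth factor and a classical HIF target, lies at chr17:46016993-46032377 on the minus strand with 8 exons. It ranged from 34.7 to 53.5 CPM in young libraries (median 38.8) and from 31.3 to 42.6 CPM in aged libraries (median 31.8). Of the aged libraries, 5 lay between 31.3 and 34.0 CPM, below all young libraries, and aged 7 at 42.6 CPM lay above 4 of the 6 young ones. Young 5 and young 6, at 48.9 and 53.5 CPM, were the highest of the 12. Vegfa fell by 0.30 on the log2 scale and its fitted level decreased by 18.9% (SE 0.119, edgeR adjusted p = 0.0497), and was the only one of the 10 genes called in this direction. This call stood at the edge of the threshold. It was retained in 4 of the 12 fits that left out 1 library and lost in the 8 without aged 1, 2, 4, 5 or 6 or young 1, 5 or 6, where the adjusted p lay at most at 0.132, and after the correction for gene length the log2 fold change was -0.18 (adjusted p = 0.207).

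The transporters held the most abundant transcripts of the set. Slc2a3 encodes GLUT3, a glucose transporter of high affinity, and lies at chr6:122727809-122742745 with 10 exons. It ranged from 1050 to 1437 CPM in young libraries (median 1293) and from 1273 to 1663 CPM in aged libraries (median 1468). Aged 1 was the lowest aged library, below 4 of the 6 young ones, and young 5 and 6 were the lowest of the 12. The log2 fold change of 0.23 missed the threshold (SE 0.0939, edgeR adjusted p = 0.0607), and it passed without aged 1 (0.27, adjusted p = 0.0353), without young 1 (0.27, adjusted p = 0.0383) with upper quartile factors (0.26, adjusted p = 0.0271), with at least 10 counts in every library (0.23, adjusted p = 0.0434) and after the correction for gene length (0.33, adjusted p = 0.019).

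Slc2a1 encodes GLUT1, the widespread basal glucose transporter, and lies at chr4:119108745-119137329 with 10 exons. It ranged from 23.1 to 51.7 CPM in young libraries (median 45.7) and from 41.3 to 73.4 CPM in aged libraries (median 58.7). Of the aged libraries, 5 lay at 57.4 CPM or more, above all young libraries, and aged 1 at 41.3 CPM lay below 4 young ones. Young 5 and young 6 stood apart at 23.1 and 30.7 CPM, and the other 4 young libraries had 48.7 ± 3.39 CPM (SD, n = 4). Slc2a1 rose by 43.2%, with a log2 fold change of 0.52 (SE 0.18, edgeR adjusted p = 0.0286). Without aged 5 it was 0.45 (adjusted p = 0.0637) and without young 6 it was 0.44 (adjusted p = 0.0647), neither past the threshold. The call was also lost with only the aged libraries before the file number gap (0.40, edgeR adjusted p = 0.189). In the 8 libraries whose replicate numbers both ages share, it was lost with the number as a block (edgeR adjusted p = 0.143) and without (edgeR adjusted p = 0.0827). After the correction for gene length the call was kept close to the threshold (0.49, edgeR adjusted p = 0.047). Per kilobase of exon, Slc2a3 was 20.8 ± 4.72 times as abundant as Slc2a1 in young mice (SD, n = 6, range 17.4 to 29.5) and 16.5 ± 1.92 times in aged mice (SD, n = 6, range 14.7 to 20.0), an overlap of the ages that was not tested further.

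Slc16a3 encodes MCT4, the carrier that exports lactate from glycolytic cells, and lies at chr11:120948484-120959000 with 7 exons. It ranged from 358 to 580 CPM in young libraries (median 493) and from 418 to 635 CPM in aged libraries (median 530). The values of the ages lay among each other, with 5 young libraries above the lowest aged and 5 aged libraries below the highest young. The log2 fold change was 0.10 (SE 0.122, edgeR adjusted p = 0.537), and without young 5 and 6 it was -0.06. Per kilobase, the ratio of Slc16a3 to Slc2a3 was 0.59 ± 0.0559 in young and 0.539 ± 0.0379 in aged mice (SD, n = 6 each).

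Pdk1 encodes a pyruvate dehydrogenase kinase that inhibits pyruvate dehydrogenase inside the mitochondrion, and is a HIF target. It lies at chr2:71873272-71903858 with 11 exons and had the lowest level of the 10 genes, with 10 to 28 counts per young and 28 to 75 counts per aged library. It ranged from 1.84 to 3.91 CPM in young libraries (median 2.08) and from 2.13 to 6.93 CPM in aged libraries (median 4.74). Aged 1 and aged 5 were highest, at 6.69 and 6.93 CPM, and aged 7 at 2.13 CPM lay below 3 young libraries. Pdk1 had the largest fold change of the set, a log2 fold change of 0.93 or a fitted level 90.7% higher (SE 0.298, edgeR adjusted p = 0.0191), and the widest spread, with a coefficient of variation of 33.9% in young and 40.0% in aged mice. The call was kept in all 12 fits that left out 1 library (log2 fold change 0.79 to 1.10) and was lost with limma-voom (0.82, adjusted p = 0.0616) and with only the aged libraries after the gap (0.93, adjusted p = 0.0661).

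Bnip3 encodes a mitochondrial outer membrane protein that recruits the autophagy machinery and is induced in hypoxia. It lies at chr7:138890836-138909506 with 6 exons. It ranged from 10.5 to 19.1 CPM in young libraries (median 16.5) and from 16.4 to 31.6 CPM in aged libraries (median 23.5). Aged 2, 4, 5 and 6 lay above all young libraries, aged 1 and 7 lay among the young, and young 5 and 6 were lowest. Bnip3 rose by 56.4%, with the smallest adjusted p of the 10 genes (log2 fold change 0.65, SE 0.194, edgeR adjusted p = 0.0139), and the call was kept in all 12 fits that left out 1 library, with a log2 fold change of 0.55 to 0.74. With only the aged libraries before the file number gap it was lost (0.50, adjusted p = 0.0725). After the correction for gene length the call was kept at the edge of the threshold (0.49, edgeR adjusted p = 0.0489). Bnip3 is short, with 1756 bases over exons.

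**Figure D2:**
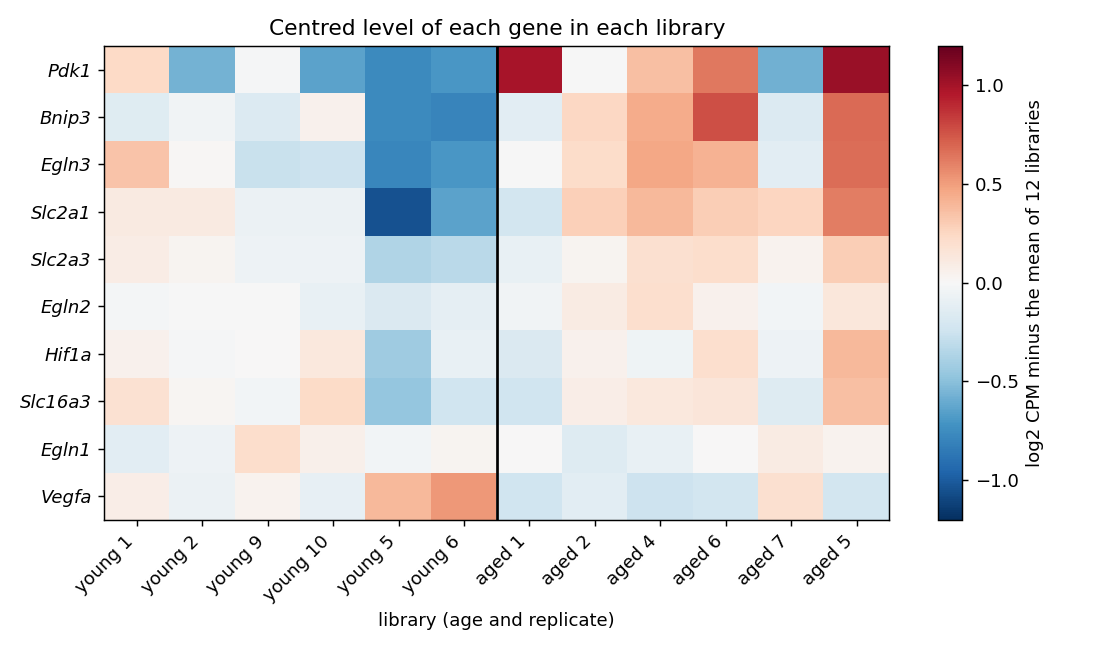
Centred level of the 10 genes (rows, sorted by log2 fold change) in the 12 libraries (columns), as log2 CPM minus the mean of the gene over the 12 libraries, with red above and blue below that mean. Young 5 and 6 are blue for Pdk1, Bnip3, Egln3, Slc2a1 and Slc2a3 and red for Vegfa, aged 5 is red for these except Vegfa, and aged 1 and 7 are near the young libraries for Bnip3.

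The libraries did not contribute evenly to these differences. Young 5 and young 6 were the 2 lowest of all 12 libraries for 6 of the 10 genes (Egln2, Egln3, Slc2a1, Slc2a3, Pdk1 and Bnip3), a position they had for 18.6% of all genes tested, and the 2 highest for Vegfa, as for 18.1% of all genes tested. Aged 5 was the highest of 12 for 6 of the 10 genes (Hif1a, Egln3, Slc2a1, Slc2a3, Slc16a3 and Pdk1), against 13.2% of all genes tested. Young 5 and 6 also had the 2 highest sums of proliferation markers, given above, the 2 lowest sums of neutrophil markers (60435 and 64382 CPM) and the highest TMM factors (1.10 and 1.08). Without these 2 libraries none of the 10 genes was called with edgeR, while 32.0% of the genes tested were, 14.1% higher and 17.9% lower. The log2 fold changes kept their direction for the 5 called genes, with 0.72 for Pdk1 (adjusted p = 0.12), 0.41 for Bnip3 (adjusted p = 0.0971), 0.31 for Egln3 (adjusted p = 0.162), 0.26 for Slc2a1 (adjusted p = 0.122) and -0.14 for Vegfa (adjusted p = 0.325). The part of proliferating cells or neutrophil transcripts in these values was not tested. Without aged 1 and 2, the libraries with the most macrophage marker RNA, 5 genes were called higher, the 4 above and Slc2a3.

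**Figure D3:**
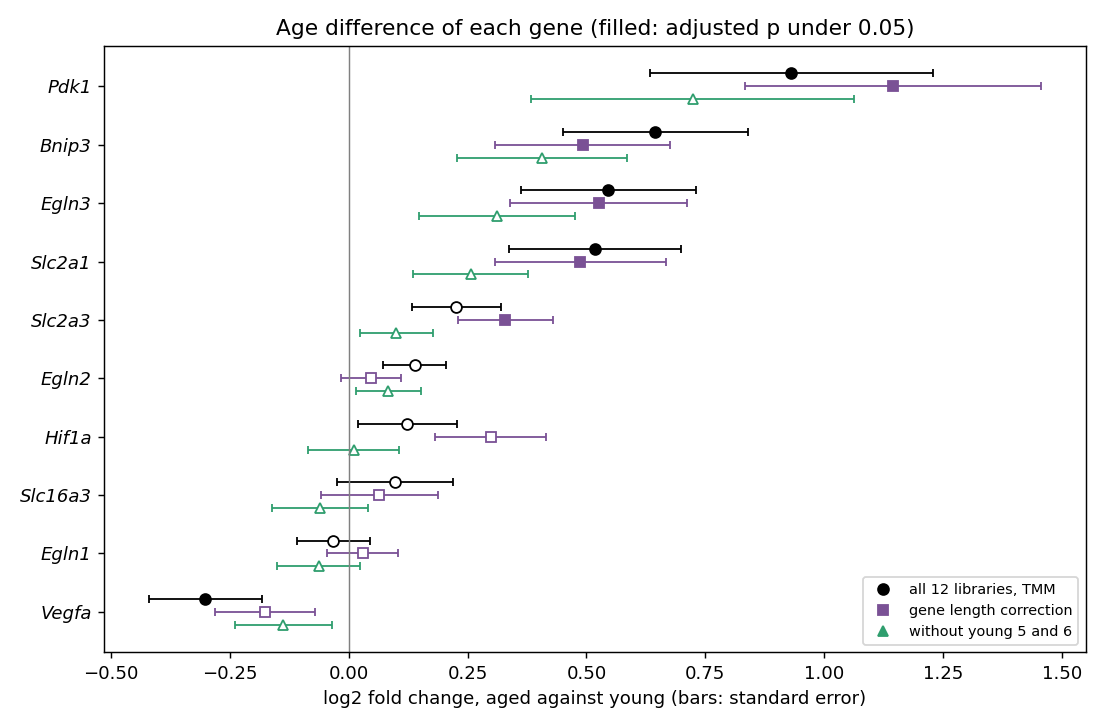
Log2 fold change of aged against young M-MDSCs for the 10 genes (horizontal axis, bars the standard error) with all 12 libraries, after the correction for gene length and without young 5 and 6, where filled symbols have an adjusted p under 0.05. The 4 rises stay filled after the length correction, with Bnip3 and Slc2a1 close to the threshold. Slc2a3 is filled there too and Vegfa is not, and all symbols are open without young 5 and 6.

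On the scale of CPM per kilobase of exon, the order of levels was led by the same transporters at both ages. In young mice Slc2a3 had 317 ± 39.9 and Slc16a3 188 ± 32.7 (SD, n = 6), followed by Hif1a at 21.9 ± 2.73, Egln2 at 20.6 ± 0.935, Slc2a1 at 16.1 ± 4.59, Vegfa at 9.98 ± 1.85, Egln1 at 9.14 ± 0.771, Bnip3 at 8.65 ± 2.09, Egln3 at 8.30 ± 2.51 and Pdk1 at 0.489 ± 0.166. Slc2a3, Slc16a3 and Pdk1 were separated from their neighbours in this order without overlap, and the neighbours from Hif1a to Egln3 overlapped. In aged mice the order was Slc2a3 (371 ± 36.6), Slc16a3 (201 ± 30.1), Hif1a (23.9 ± 3.56), Slc2a1 (22.8 ± 4.04), Egln2 (22.7 ± 1.54), Bnip3 (13.4 ± 3.63), Egln3 (11.95 ± 2.49), Egln1 (8.95 ± 0.575), Vegfa (8.11 ± 1.05) and Pdk1 (0.925 ± 0.37), where Slc2a3, Slc16a3 and Pdk1 were again separated and Egln2 and Bnip3 also did not overlap. Vegfa thus stood above Bnip3 and Egln3 by mean level in young mice and below them in aged mice, although at neither age were all of these neighbours separated. Among all genes tested, Slc2a3 lay at percentile 98.6 of this scale, Slc16a3 at percentile 97.3, Hif1a at percentile 74.4 and Pdk1 at percentile 5.75.

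**Figure D4:**
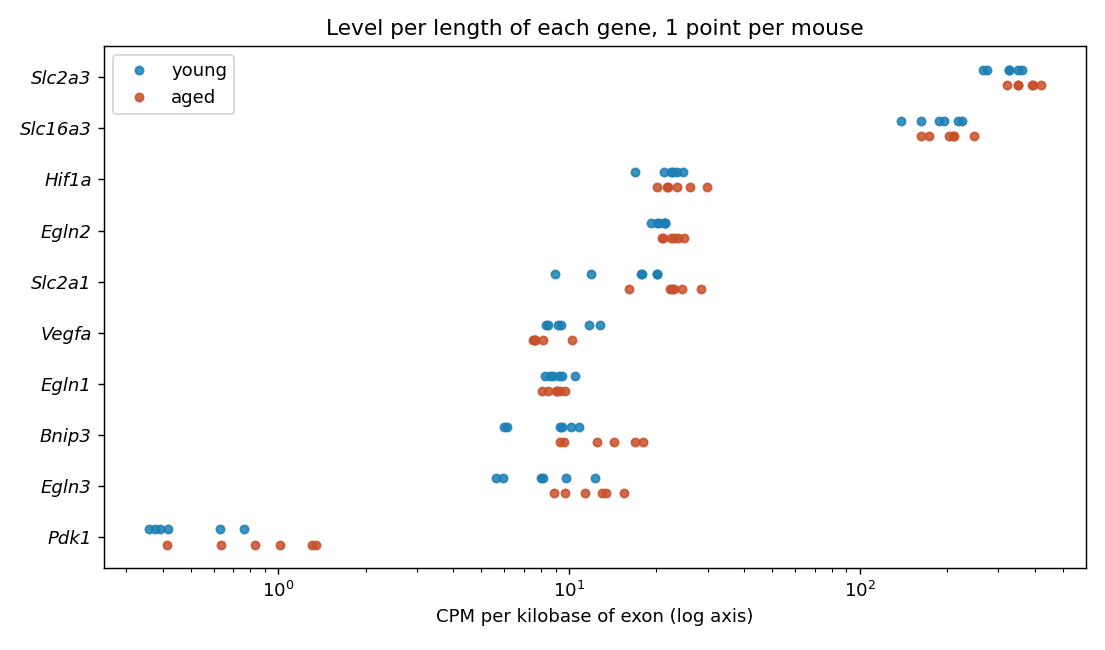
Level of the 10 genes in CPM per kilobase of exon (horizontal log axis), with 1 point per mouse, in the order of the mean in young mice. Slc2a3 and Slc16a3 lie above 100 at both ages, Pdk1 lies lowest, and the other 7 genes lie between these.

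Among the genes whose pattern over the 12 libraries was most like that of Hif1a, by the mean absolute difference of centred log2 CPM among 6590 genes of at least 10 CPM, were 5430427O19Rik (0.0714) and Zfand3 (0.0726), against a median of 0.22 over these genes. For Slc2a1 they were Emilin2 (0.124), Ppp1r3d (0.124) and Slc25a30 (0.126), against a median of 0.359.

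The other genes of the pathway were described by lists, whose counts stand beside a background of 22.4% of all genes tested called higher and 23.0% called lower (14.1% and 17.9% without young 5 and 6), so calls in both directions are common in any list. Of 15 HIF subunits and regulators, 12 were tested, 4 were higher and 3 lower, with a median log2 fold change of 0.09. The higher genes were Vhl (0.29), the von Hippel-Lindau protein, its elongin partners Tceb1 (0.41) and Tceb2 (0.66), and Rbx1 (0.54), which act in the ubiquitin ligase that captures hydroxylated HIF, and Cul2 (0.06), the scaffold of that ligase, was not called. Vhl ranged from 43.3 to 51.4 CPM in young and from 53.1 to 64.3 CPM in aged libraries, with no overlap (edgeR adjusted p = 0.00595). The lower genes were the coactivators Ep300, with 663 ± 32.9 CPM in young and 430 ± 44.4 CPM in aged mice (SD, n = 6, log2 fold change -0.62, edgeR adjusted p = 2.94e-05), and Crebbp (-0.55), and Hif1an (-0.18), the asparagine hydroxylase that blocks coactivator binding. Arnt, the HIF partner subunit (0.07, adjusted p = 0.352), Cited2 (0.26), Siah1a (0.10) and Siah2 (-0.51) were not called either. After the correction for gene length 3 genes of this list were higher and 1 was lower, without young 5 and 6 there were 4 and 2, and among the called genes Tceb2 (508 bases over exons) and Tceb1 (955 bases) are short and Ep300 (8749 bases), Crebbp (7507 bases) and Hif1an (6190 bases) are long. Epas1, the HIF2 alpha subunit, had too few counts for the test, with means of 0.524 CPM in young and 2.28 CPM in aged mice.

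Of 29 further genes known to be induced in hypoxia, 20 were tested, 8 were higher, 4 were lower and 8 were not called, with a median log2 fold change of 0.15. The largest rise was that of Mif, a cytokine (1.37, SE 0.354, edgeR adjusted p = 0.00582), at 0.651 to 2.36 CPM in young and 1.497 to 5.91 CPM in aged libraries, which overlapped. Hmox1, which breaks down heme, rose from 40.0 ± 5.84 to 80.1 ± 30.2 CPM (SD, n = 6) without overlap (log2 fold change 1.0, edgeR adjusted p = 8.27e-04). Its highest value (139 CPM) was that of aged 1, the library with the most macrophage marker RNA, whose part in the rise was not tested. The other higher genes were Fam162a (1.10), Ddit4 (0.73), Bhlhe40 (0.42), Cxcr4 (0.35), Plin2 (0.32) and Bnip3l (0.29), the paralog of Bnip3. The lower genes were Pfkfb3, which makes the main activator of phosphofructokinase (-0.52, edgeR adjusted p = 6.71e-05), at 155 to 176 CPM in young and 99.2 to 127 CPM in aged libraries, the transferrin receptor Tfrc (-0.47), the oxidoreductase Ero1l (-0.38) and the histone demethylase Kdm3a (-0.26). Without young 5 and 6 there were 4 higher and 3 lower, and after the correction for gene length 6 higher and 2 lower. Car12 and Ak4 were at 0 in all 12 libraries.

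Of 9 further VEGF ligands and receptors, 3 had enough counts. Nrp1, a coreceptor of VEGFA, fell by 0.60 on the log2 scale, from 60.7 ± 2.42 to 39.9 ± 10.9 CPM (SD, n = 6, edgeR adjusted p = 0.00345), with no overlap. Flt1, a receptor, was lower as well (-1.19, edgeR adjusted p = 0.0199) at means of 2.23 and 1.0 CPM. Nrp2, the other neuropilin, was higher (1.61, edgeR adjusted p = 0.00843), at 1.29 to 2.08 CPM in young and 1.82 to 12.8 CPM in aged libraries. The aged values were spread widely (5.09 ± 4.20 CPM, SD, n = 6). The highest was that of aged 1, the library with the most macrophage marker RNA, whose part in the rise was not tested. The counts of this list, 1 higher and 2 lower, moved with the processing, to 1 and 0 after the correction for gene length, 1 and 1 without young 5 and 6, 0 and 1 after thinning or with at least 10 counts in every library, and 3 and 2 with DESeq2 or without a filter, which test more genes of low counts.

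Of 18 other glucose and monocarboxylate transporters and their chaperones, 6 were tested. Bsg (basigin), the chaperone that carries MCT4 to the cell surface, was higher (0.28, SE 0.0927, edgeR adjusted p = 0.0242), at 58.3 ± 9.08 CPM in young and 70.5 ± 3.40 CPM in aged mice (SD, n = 6). Slc16a6 was lower (-0.54, edgeR adjusted p = 0.0143). The glucose transporter family members Slc2a6 (0.25, adjusted p = 0.166) and Slc2a9 (0.21, adjusted p = 0.147), Slc16a7 (-0.46, adjusted p = 0.125) and Emb (0.19, adjusted p = 0.23) were not called with edgeR. Slc2a2, Slc2a10, Slc2a12, Slc16a8, Slc5a8 and Slc5a12 were at 0 in all 12 libraries. Without young 5 and 6, and after the correction for gene length, 0 genes of this list were called, and leaving out young 5 or young 6 alone left 0 called higher. Without aged 7 there were 2 higher, and without aged 1 there were 2 lower.

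Of 21 glycolytic enzymes, 15 were tested, 9 were higher, 2 lower and 4 not called, with a median log2 fold change of 0.32. Ldha, which makes lactate, had the largest rise (0.58, SE 0.109, edgeR adjusted p = 8.28e-04), at 326 to 522 CPM in young and 619 to 795 CPM in aged libraries. Gapdh had the smallest p (0.49, edgeR adjusted p = 5.36e-04), at 138 ± 17.98 CPM in young and 194 ± 15.6 CPM in aged mice (SD, n = 6). Of the hexokinases, which trap glucose in the cell, Hk3 was lower (-0.23, edgeR adjusted p = 0.0157), Hk2 was lower close to the threshold (-0.17, edgeR adjusted p = 0.046) and Hk1 was not called (-0.02). The 2 lower calls of this list became 1 in the fits without aged 1, 2, 4, 5 or 6 or young 1, 2, 6 or 9, and 0 with only the aged libraries after the gap, without aged 1 and 2 and in the fit of 8 libraries with the replicate number as a block. The phosphofructokinases Pfkl (0.21, adjusted p = 0.0881) and Pfkp (0.10, adjusted p = 0.339) and Ldhb (0.33, adjusted p = 0.149) were not called with edgeR. After the correction for gene length, and also without young 5 and 6, 6 of these enzymes were higher and 1 lower.

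Of 13 genes of pyruvate entry and of the pyruvate dehydrogenase complex, which Pdk1 inhibits, 11 were tested, 3 were higher and 0 lower with edgeR, with a median log2 fold change of 0.25. Mpc1, a subunit of the mitochondrial pyruvate carrier, rose most (0.70, SE 0.148, edgeR adjusted p = 0.00179), at 15.7 to 29.4 CPM in young and 30.6 to 46.9 CPM in aged libraries. Pdk3, another kinase of the complex (0.31), and Pdhb, a subunit of it (0.24), were the other 2. Without young 5 and 6, and likewise after the correction for gene length, 1 gene of this list was higher. Mpc1 is short, with 907 bases over exons.

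Of 10 other mitophagy receptors and adaptors, 9 were tested, 7 were higher, 1 was lower and 1 was not called, with a median log2 fold change of 0.37. Pink1, a kinase that marks damaged mitochondria, rose most, from 68.1 ± 12.5 to 105 ± 15.9 CPM (SD, n = 6, log2 fold change 0.63, edgeR adjusted p = 0.00118). Phb2 (0.49), Fundc1 (0.43), Sqstm1 (0.39), Fkbp8 (0.37), Map1lc3b (0.33) and Bnip3l (0.29) were the other higher genes. The adaptor Optn went the other way (-0.77, SE 0.125, edgeR adjusted p = 3.05e-04), at 33.9 to 53.4 CPM in young and 20.9 to 29.5 CPM in aged libraries, with no overlap, and the receptor Bcl2l13 was not called (0.04, adjusted p = 0.718). Without young 5 and 6, 4 were higher and 1 lower, and after the correction for gene length 6 and 1.

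**Figure D5:**
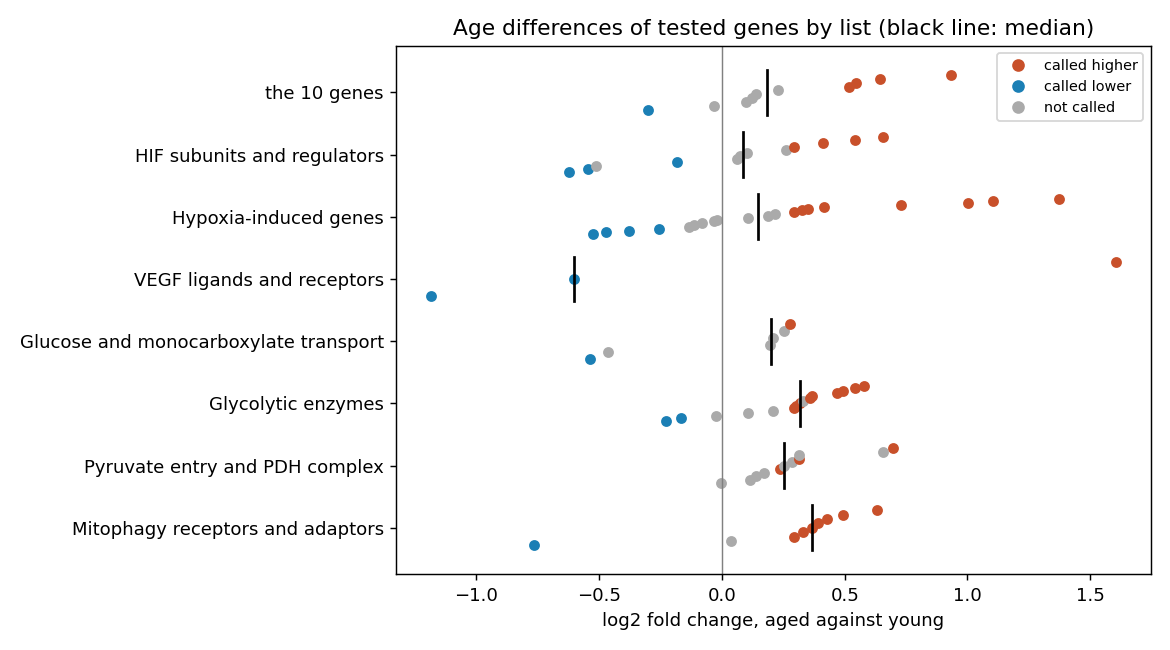
Log2 fold change of aged against young M-MDSCs (horizontal axis) for the tested genes of each list, 1 point per gene, coloured by the call, with the list median as a black line. The medians of the glycolytic and mitophagy lists lie at 0.32 and 0.37, the 10 genes at 0.18, and every list except pyruvate entry has called genes on both sides of 0.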

How the data were processed

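M-MDSC RNA from 12 mice was prepared with a stranded TruSeq kit and sequenced in pairs on a NovaSeq instrument. Per the labels and the file header, the authors deposited raw fragment counts per gene from featureCounts 2.0.0 (exons of a UCSC annotation of mm10, both ends aligned, reverse-stranded, a minimum mapping quality of 60). The read aligner is not given in the sources used here. The deposited length over exons was used to scale levels and carries no unit of expression. The mapping quality filter drops fragments that fit several places, and no exon of the 10 genes overlaps another gene in the table. All 12 count columns were matched to mice by the labels.

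Counts were tested with edgeR 4.0.16 in R 4.3.3 (filterByExpr, TMM factors of 0.919 to 1.10, quasi-likelihood test, Benjamini-Hochberg adjustment over 9742 genes, threshold 0.05), without covariates, and the procedure was tested on simulated data. log2 CPM profiles used a prior count of 2. Alternatives were DESeq2 1.42.0 (the tool the authors used), limma-voom (limma 3.58.1), other scalings and filters, a length correction, thinning, file number subsets, a replicate block and leaving out libraries. The smallest chi-square per gene between 2 mice of an age was 1.67, so no library was a copy of another. The biological coefficient of variation was 15.7%. The standard errors printed with the log2 fold changes come from the edgeR fit and take in the spread between mice.

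The 10 genes and the lists were chosen with earlier results of these data known. The rule for other named genes takes, from each list, the largest called rise and fall and the smallest p, and members not called or against the list where these are 5 or fewer. Hmox1, Vhl, Bnip3l and the other called genes listed by name beside these were added after their values were seen. Ly6g was not analysed here, and 1 gene with a pattern like that of Hif1a is not reported here.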

Additional observations from a re-analysis of the deposited data

Results flagged for a closer look

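Within each age, every gene of the 10 was examined for a library that stood apart from the other 5 of its group by Dixon's test at the 95% level, 20 groups in all. It was met once, by Vegfa in aged 7, with 42.6 CPM against 34.0 CPM in the next highest aged library. Chance flags about 1 in 20 groups, which is the number found here. Aged 7 also had the highest sum of proliferation markers among the aged libraries (710 CPM), and its part in the Vegfa value was not tested.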

How the results depend on the processing

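The number of the 10 genes called higher was 4, and 4 to 6 in DESeq2, without TMM factors, with upper quartile factors, with at least 10 counts in every library, without a filter, after the length correction and after thinning, and 3 with limma-voom. It was 1 with the aged libraries numbered before the file number gap, 2 with those after it, 0 without young 5 and 6 and 2 to 5 with each library left out. The 1 gene called lower, Vegfa, became 0 in DESeq2 (adjusted p = 0.0503), in limma-voom, with upper quartile factors, with at least 10 counts in every library, without a filter, after the length correction, after thinning, before and after the gap, without young 5 and 6 and without aged 1 and 2, and it was 0 to 1 with each library left out. The cause was not tested. The 5 genes called kept their direction in every setting run. Over all genes 3014 to 4750 were called, and without TMM factors the share called higher was 37.8% in place of 49.4%, with the median log2 fold change at -0.08. The log2 fold change of Egln1 changed sign with upper quartile factors (0.0025), the length correction (0.0295), the libraries after the gap (0.0414), without aged 1 and 2 (0.0043) and in the leave-one-out fits (-0.0595 to 0.0098). Hif1a changed sign before the gap (-0.0075) and Slc16a3 without young 5 and 6 (-0.0605). For the 4 replicate numbers that both ages share, the replicate block gave 2 genes higher and 1 lower (Egln1 0.0118), and the same 8 libraries without the block gave 2 and 1 (Egln1 0.0099). Deviations of same-numbered mice correlated at -0.246 to -0.0655 and none of the 4 aged libraries correlated best with its own number. No pairing by number was seen, although 4 pairs are too few to exclude it. The leave-out settings of 2 libraries were chosen after seeing the data. Depth limits Pdk1 most, with 10 to 75 counts per library.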
